A study of Mus musculus with 4 samples.

Results

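Described here are 9 mouse genes that bring cystine into the cell and that build, recycle and break down glutathione, in lung tumours with and without the transcription factor NRF2. They were chosen by name and role: Slc7a11 and Slc3a2 for cystine import, Gclc, Gclm and Gss for synthesis, Gsr for reduction, Ggt1 for breakdown, and Cbs and Cth for making cysteine from methionine. All 9 were found among the 35275 gene identifiers of the expression table, and all 9 are among the 13147 genes tested. The samples were lung tumours of Balb/c mice given vinyl carbamate, a chemical lung carcinogen, at 16 mg/kg in 2 or 4 doses and dissected 40 to 44 weeks later. One group had the genotype Nrf2 +/+ (wild type, WT) and the other Nrf2 -/- (knockout, KO), with 2 samples each. Both groups received the carcinogen, and no untreated or tumour-free lung was included. Each sample pooled 3 to 4 tumours, and numbers of doses, weeks and tumours are not tied to single samples by the labels, which also leave unsaid whether the pooled tumours came from 1 mouse. Levels are FPKM, which are fragments per kilobase of gene scaled to the depth of the library, a unit that allows comparison between genes of different length.

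Glutathione is a tripeptide of glutamate, cysteine and glycine that cells use to detoxify peroxides and reactive chemicals. Cysteine usually limits its synthesis, and cells obtain it by importing cystine through the antiporter system xc-, by taking up cysteine released from extracellular glutathione, or from methionine through transsulfuration. NRF2, the protein product of Nfe2l2, binds antioxidant response elements near many genes of this pathway, of which Slc7a11, Gclc, Gclm and Gsr are textbook targets.

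The labels were checked first on the deleted gene. Nfe2l2 stood at 96.3 and 87.9 FPKM in WT 1 and WT 2 and at 3.66 and 2.96 FPKM in KO 1 and KO 2, and it was called as lower (limma adjusted p = 0.000378). Depth, as implied by the FPKM, was 21.66 and 21.22 M reads (1 M is 1e+06) for WT and 17.98 and 16.89 M for KO. Alveolar type 2 cell markers, which define the epithelium these tumours usually resemble, were all above 0 and summed to 111905 and 112535 FPKM in WT and 123530 and 108874 FPKM in KO. Most of the sum came from Sftpc (75159 and 77718 FPKM in WT, 90474 and 76027 in KO), so it says little of the other markers. Of 11 tested, 0 were called. At a limma unadjusted p under 0.05, 1 was lower and 2 were higher, against 7.01% and 8.36% of all tested genes.

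The levels of the 9 genes spanned a wide range, and their order was stable. Gsr was highest, followed by Gclc, Slc3a2, Gclm, Gss, Cth and Ggt1, and these 7 kept the same rank in every library. Slc7a11 and Cbs were lowest and changed places between libraries, with overlapping levels within each genotype. Gclm and Gss were neighbours with little between them in WT, at 21.8 ± 0.0518 and 20.5 ± 0.371 FPKM (SD, n = 2 each). In KO their ranges overlapped, as did those of Gsr with Gclc and of Gclc with Slc3a2. The 3 genes with the lowest levels were also the 3 whose KO values lay farthest below WT.

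**Figure D1:**
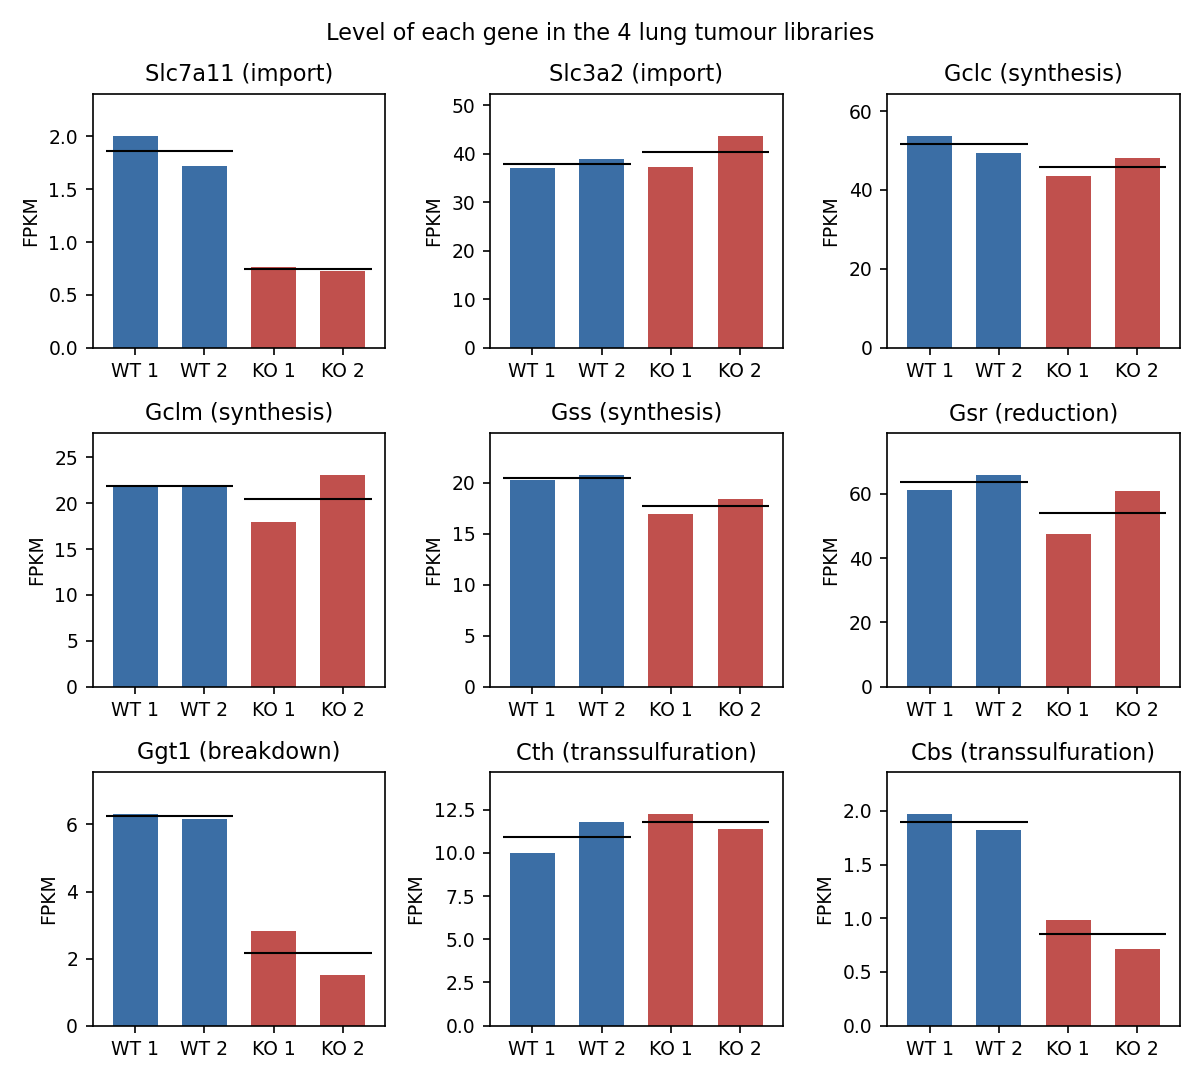
Bars give the FPKM of each gene in WT 1 and WT 2 (blue) and KO 1 and KO 2 (red), and the black lines mark the group means. Each panel has its own axis from 0. Slc7a11, Ggt1 and Cbs have KO means between 34.5% and 44.8% of WT, and the other 6 genes have KO means between 85.2% and 108% of WT.

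In cystine import, the light chain and the heavy chain of the transporter had different values. Slc7a11 (chromosome 3, 49892526 to 50443614, minus strand, mm10, as all positions here) encodes xCT, the transporting light chain of system xc-, which exchanges intracellular glutamate for cystine. It stood at 2.01 and 1.72 FPKM in WT 1 and WT 2 and at 0.763 and 0.726 FPKM in KO 1 and KO 2. Both KO libraries were low and close to each other, and the groups did not overlap. The KO mean was 40.0% of the WT mean, with a log2 fold change of -0.71 ± 0.16 (SE; limma adjusted p = 0.166), so the gene was not called over all genes. These levels correspond to at least 269 and 226 reads in WT and 85 and 76 in KO, and the ratio of read rates was 0.400 with a 95% exact counting interval of 0.333 to 0.479. This and the other counting intervals given below cover counting error only, not the spread between samples. Slc7a11 passed the filter on low values (an FPKM of at least 1 in 2 libraries) through WT alone, so it could be tested only because it was high there. Its log2 fold change depended on the pseudocount added to such low values, and was -1.21 with a pseudocount of 0.1 (limma adjusted p = 0.173) and -1.29 with limma-voom on reads (adjusted p = 0.109). In bulk tumour RNA, fewer cells of a type and less RNA per cell cannot be told apart.

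The promoter window of Slc7a11 is shown because this gene had the lowest mean level of the 9 in KO and is a textbook target of both NRF2 and ATF4, the transcription factor of the amino acid shortage response. RefSeq start-site windows (build GRCm38.p6, 250 bases before to 50 after the start) were used for 6 of the 9 genes (Slc7a11, Slc3a2, Gclm, Gss, Ggt1 and Cbs), in 9 windows; those of Gclc, Gsr and Cth are not analysed here. Both strands were searched for TGACNNNGC, the core of the antioxidant response element, for TGATGNAA, the core of the amino acid response element, and for the E-box CACGTG; no matches of different motifs overlapped in these windows. Of all 32851 windows, 12.4% hold the first, 3.97% the second and 7.15% the third. The Slc7a11 window at chr3:50443564-50443863, minus strand, holds no match to the first core, which says only that these letters are not in this window. It holds the second core in both orientations, beginning 66 and 47 bases before the start, in capitals here.
Slc7a11: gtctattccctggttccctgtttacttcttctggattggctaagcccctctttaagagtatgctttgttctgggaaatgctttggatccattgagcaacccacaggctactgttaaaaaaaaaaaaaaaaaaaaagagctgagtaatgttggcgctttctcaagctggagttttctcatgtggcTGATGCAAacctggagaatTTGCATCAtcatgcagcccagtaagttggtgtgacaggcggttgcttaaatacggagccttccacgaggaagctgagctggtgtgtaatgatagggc

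Slc3a2 (chromosome 19, 8706882 to 8723369, minus strand) encodes CD98hc, the heavy chain that carries xCT and several other amino acid transporters to the cell surface. It stood at 37.0 and 38.8 FPKM in WT and at 37.2 and 43.7 FPKM in KO, and the groups overlapped. Its log2 fold change was 0.09 ± 0.12 (SE; limma adjusted p = 0.77), with a 95% interval from -0.20 to 0.37, and it was -0.027 without KO 2. Slc3a2 was thus far more abundant per length than Slc7a11 in every library.

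The genes of glutathione synthesis lay within a narrow band. Gclc (chromosome 9, 77754535 to 77794485, plus strand), the catalytic subunit of glutamate-cysteine ligase, which catalyses the rate-limiting step, stood at 53.7 and 49.5 FPKM in WT and at 43.5 and 48.1 FPKM in KO. Both KO libraries were below both WT libraries, by a small margin between KO 2 and WT 2. Its log2 fold change was -0.17, with a 95% interval from -0.44 to 0.10 (limma adjusted p = 0.512). Gclm (chromosome 3, 122245557 to 122270732, plus strand), the modifier subunit that raises the activity of the catalytic one, stood at 21.9 and 21.8 FPKM in WT and at 17.9 and 23.1 FPKM in KO. The KO libraries lay on either side of WT, and the log2 fold change was -0.10, with an interval from -0.44 to 0.25 (limma adjusted p = 0.788). It was 0.077 without KO 1. Gss (chromosome 2, 155563181 to 155592810, minus strand), glutathione synthetase, which adds glycine in the second step, stood at 20.2 and 20.8 FPKM in WT and at 17.0 and 18.4 FPKM in KO. Both KO libraries were lower, with a log2 fold change of -0.20 and an interval from -0.46 to 0.06 (limma adjusted p = 0.424). Gss overlaps Acss2 and antisense transcripts on the opposite strand, and Gclm and Slc7a11 also overlap genes on the opposite strand and processed pseudogenes; whether the counting used strand is not given in the sources used here. None of the 3 intervals reaches a loss of 50% on this scale, and all 3 include 0.

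The Gclm window held the antioxidant response element core, and 80 bases around it (chr3:122245387-122245466, plus strand) are shown as a contrast to Slc7a11. The match lies on the opposite strand of the gene, beginning 134 bases before the start, in capitals. The Gss and Slc3a2 windows held none of the 3 motifs.
Gclm: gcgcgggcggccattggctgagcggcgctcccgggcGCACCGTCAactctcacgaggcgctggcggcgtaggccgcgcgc

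Gsr (chromosome 8, 33652523 to 33698163, plus strand), glutathione reductase, regenerates glutathione from its oxidised dimer with NADPH. It had the highest level of the 9 genes, at 61.2 and 66.0 FPKM in WT and 47.5 and 60.9 FPKM in KO. KO 1 was clearly low, while KO 2 was just below WT 1. The log2 fold change was -0.24 ± 0.14 (SE; limma adjusted p = 0.478), and it was -0.06 without KO 1 and -0.41 without KO 2.

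Glutathione breakdown showed the largest difference among the 9 genes. Ggt1 (chromosome 10, 75561604 to 75586200, plus strand) encodes gamma-glutamyltransferase 1, a cell-surface enzyme that removes the glutamyl group from extracellular glutathione and so opens the way to recovering its cysteine. It stood at 6.32 and 6.17 FPKM in WT 1 and WT 2 and at 2.81 and 1.497 FPKM in KO 1 and KO 2. The WT libraries were close to each other, KO 2 was lower than KO 1, and the groups did not overlap. The KO mean of 2.16 ± 0.931 FPKM was 34.5% of the WT mean of 6.25 ± 0.0991 FPKM (SD, n = 2 each). The log2 fold change was -1.23 ± 0.22 (SE; limma adjusted p = 0.12), with a 95% interval from -1.76 to -0.70, and the gene was not called over all genes. Without KO 1, the KO library nearer to WT, the log2 fold change was -1.54 and the limma adjusted p = 0.0136. That fit has 1 KO library, which is assumed to vary like the WT pair. Without KO 2, under the same assumption, it was -0.93 and not called (adjusted p = 0.125). The values correspond to at least 119 and 114 reads in WT and 44 and 22 in KO, a ratio of read rates of 0.348 with a 95% exact counting interval of 0.261 to 0.460, which leaves out the difference between the KO libraries.

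Ggt1 has several annotated start sites, and 4 RefSeq windows cover them. The antioxidant response element core occurs in 3 of the 4, against 12.4% of all windows, and the values do not tell which start was used. The windows of 1 gene are not independent of each other. The start 1 match lies at the end of its window, beginning at base 42 counted from the start. The matches of starts 2 and 3 begin 36 and 83 bases before the start. The start 2 window also holds an E-box, beginning at base 32 counted from the start, outside the stretch shown. The stretches of 80 bases that hold the matches lie on the plus strand of chromosome 10, in the order of the gene. Matches are in capitals, and the middle one is on the opposite strand. The stretches span chr10:75564102-75564181, chr10:75568590-75568669 and chr10:75571441-75571520.
Ggt1 start 1: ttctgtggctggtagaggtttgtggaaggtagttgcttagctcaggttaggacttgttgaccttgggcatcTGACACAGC
Ggt1 start 2: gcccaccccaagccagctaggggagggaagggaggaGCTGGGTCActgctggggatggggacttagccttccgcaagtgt
Ggt1 start 3: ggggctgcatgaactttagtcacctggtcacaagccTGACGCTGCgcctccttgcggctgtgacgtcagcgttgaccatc

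In transsulfuration the entry enzyme and the exit enzyme differed. Cbs (chromosome 17, 31608894 to 31637238, minus strand), cystathionine beta-synthase, joins homocysteine and serine to cystathionine. It stood at 1.97 and 1.82 FPKM in WT and at 0.986 and 0.716 FPKM in KO. Both KO libraries were below both WT libraries, and the KO mean was 44.8% of the WT mean. The log2 fold change was -0.65 ± 0.17 (SE; limma adjusted p = 0.194) and -1.08 with a pseudocount of 0.1 (adjusted p = 0.206). Cbs, like Slc7a11, passed the filter through WT alone. Its reads were few, at least 53 and 48 in WT and 22 and 15 in KO, and the ratio of read rates was 0.450 with a 95% exact counting interval of 0.3004 to 0.663. Cth (chromosome 3, 157894248 to 157925077, minus strand), cystathionine gamma-lyase, splits cystathionine to release cysteine. It stood at 10.003 and 11.8 FPKM in WT and at 12.3 and 11.4 FPKM in KO. The groups overlapped, with a log2 fold change of 0.11 and a 95% interval from -0.20 to 0.42 (limma adjusted p = 0.727). The Cbs window held an E-box and neither of the other motifs.

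Over all genes tested, 0.114% were called by limma at an adjusted p under 0.05 (0.0380% lower and 0.0761% higher), and 0 of the 9 genes were. By limma-voom on reads 0.0456% of genes were called, and again 0 of the 9. At an unadjusted p under 0.05 limma found 3 of the 9 lower (Ggt1, Slc7a11 and Cbs), where 7.01% of all tested genes were lower by that rule, and 0 higher, where 8.36% were. Both KO libraries lay below both WT libraries for 6 of the 9, against 25.4% of all tested genes, and above them for 0, against 22.7%. A log2 fold change of -0.5 or less was seen for 3 of the 9 and for 2.75% of all tested genes, and one of -1 or less for 1 of the 9 (Ggt1) and for 0.350%. Slc7a11 and Cbs are in the counts of 3 and 6 and passed the filter through WT alone, so they could be tested only because they were high there, and these counts are a description. The median log2 fold change was -0.20 over the 9 genes and -0.00 over all tested genes.

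**Figure D2:**
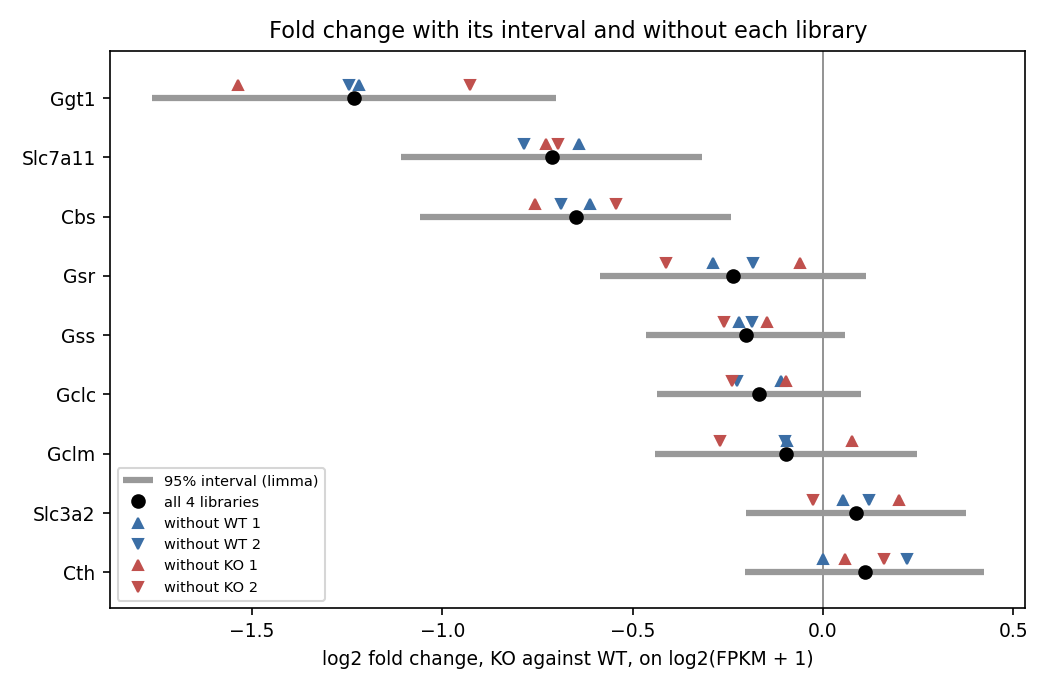
Black points give each gene's log2 fold change of KO against WT on log2(FPKM + 1), with limma's 95% interval in grey, and triangles give the value with 1 library left out. The intervals of Ggt1, Slc7a11 and Cbs lie below 0 before adjustment for the number of genes tested, and those of the other 6 include 0. Slc7a11 and Cbs passed the filter on low values through WT alone, and their values depend on the pseudocount.

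Partner genes were then compared within each library, in 4 ratios of FPKM. Slc3a2 exceeded Slc7a11 by 18.5 and 22.6 times in WT 1 and WT 2 and by 48.7 and 60.1 times in KO 1 and KO 2. The ratio of Cth to Cbs was 5.07 and 6.48 in WT and 12.4 and 15.9 in KO. Both ratios were higher in the KO libraries without overlap. They mostly restate the lower values of Slc7a11 and Cbs, since Slc3a2 and Cth overlapped between the groups. Slc7a11 and Cbs passed the filter on low values through WT alone. The ratio of Gclm to Gclc was 0.407 and 0.441 in WT and 0.412 and 0.480 in KO, and that of Gclc to Gss 2.65 and 2.38 against 2.57 and 2.61. These ratios overlapped between the groups. The smallest two-sided p that exact permutation of 2 against 2 libraries allows is 0.333. That value was reached for Slc7a11 to Slc3a2 and for Cth to Cbs (exact permutation p = 0.333, and 0.667 adjusted over the 4 ratios). For Gclm to Gclc the exact permutation p was 0.667, and for Gclc to Gss it was 1. On the log2 scale the Slc7a11 to Slc3a2 ratio differed by -1.41 between KO and WT. The SDs within WT and KO were 0.21 and 0.22 (n = 2 each), given as a description. With a pseudocount of 1 in both genes the difference was -0.80, and that of Cth to Cbs was 0.76 instead of 1.29.

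**Figure D3:**
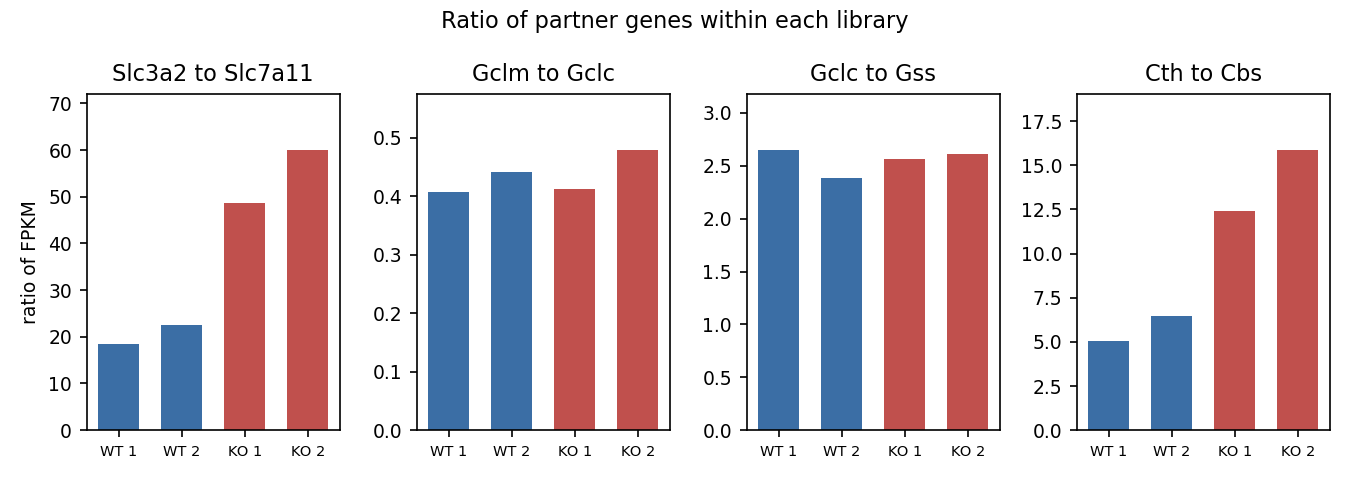
Bars give the ratio of the FPKM of partner genes within each library, each panel with its own axis from 0 (WT blue, KO red). Slc3a2 to Slc7a11 and Cth to Cbs are higher in both KO libraries than in both WT libraries, and the balance within glutamate-cysteine ligase (Gclm to Gclc) overlaps between the groups.

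Genes around the pathway were read from lists written by role, with earlier results of these data known. Over all tested genes, 0.114% were called by limma. At a limma unadjusted p under 0.05, 7.01% of all tested genes were lower and 8.36% higher. These are the shares to set beside the list counts below. Other transporters of cystine, cysteine and related amino acids had 8 of 10 listed genes tested, with 0 called, 0 lower and 1 higher at a limma unadjusted p under 0.05, and their median log2 fold change was 0.02. Slc7a10, a light chain that also pairs with Slc3a2 and carries small neutral amino acids, stood at 0.890 and 0.454 FPKM in WT and at 2.92 and 2.47 FPKM in KO (log2 fold change 1.15, limma adjusted p = 0.114). It passed the filter through KO alone. The kidney-type cystine transporter Slc7a9 and its partner Slc3a1 were under 0.3 FPKM in every library and were not tested.

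Other genes of glutathione breakdown and the gamma-glutamyl cycle had a median of 0.03 over 11 tested of 13, with 0 called, 1 lower and 2 higher at an unadjusted p under 0.05. Ggt5, a relative of Ggt1, stood at 34.0 and 35.7 FPKM in WT and at 30.6 and 31.6 FPKM in KO (limma adjusted p = 0.488), above Ggt1 in every library. Dpep1, a dipeptidase that splits the cysteinylglycine left by gamma-glutamyltransferases, stood at 2.74 and 0.778 FPKM in WT and at 3.28 and 4.83 FPKM in KO (adjusted p = 0.297). Chac1, which degrades glutathione inside the cell and is induced by ATF4, stood at 0.733 and 0.662 FPKM in WT and at 1.09 and 2.24 FPKM in KO (adjusted p = 0.311). Chac1 passed the filter through KO alone and is 1 of the 2 counted as higher.

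The methionine cycle, which supplies homocysteine to Cbs, had 10 of 12 genes tested, and their median log2 fold change was -0.12. None was called, 0 had a limma unadjusted p under 0.05, and 5 of the 10 had both KO libraries below both WT libraries, against 25.4% of all tested genes. Genes of cysteine and sulfide catabolism had a median of -0.03 over 10 of 10, with 0 called, 2 lower and 1 higher at an unadjusted p under 0.05. Cdo1, cysteine dioxygenase, which commits cysteine to taurine and sulfate, stood at 6.34 and 3.51 FPKM in WT and at 8.51 and 9.63 FPKM in KO (limma adjusted p = 0.232). Sqor, which oxidises hydrogen sulfide in mitochondria, stood at 67.2 and 58.3 FPKM in WT and at 47.6 and 49.1 FPKM in KO (adjusted p = 0.246). The list of glutaredoxins and glutathione carriers, which also holds other glutathione-linked enzymes, had a median of 0.11 over 10 of 10, with 0 called. At an unadjusted p under 0.05, 1 was higher: Glrx5, a glutaredoxin of iron-sulfur cluster assembly (51.0 and 60.1 FPKM in WT against 70.6 and 66.4 in KO, limma adjusted p = 0.318).

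Other NRF2 targets give the scale of the difference between the genotypes. Of 15 tested of 16 listed, 3 were called, and all 3 fell in KO: Gsta3 and Gstm1, which are glutathione S-transferases, and Gpx2, a glutathione peroxidase. Their log2 fold changes were -2.54, -1.95 and -2.16 (limma adjusted p = 0.0108, 0.024 and 0.0108), each larger in size than any of the 9 genes showed. At an unadjusted p under 0.05, 9 of the 15 were lower and 0 higher, against 7.01% and 8.36% of all tested genes, and the list median was -0.32. Nqo1, the usual reporter of NRF2 activity, ranged from 0.343 to 0.654 FPKM and was not tested.

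ATF4, which also drives Slc7a11 and Slc3a2, was read from its own transcript and its targets. Atf4 itself stood at 61.8 and 70.1 FPKM in WT and at 63.3 and 61.9 FPKM in KO. The list of ATF4 and its targets had all 15 genes tested and a median log2 fold change of 0.07, with 0 called, 5 higher and 0 lower at an unadjusted p under 0.05. The 2 with the largest differences were the transcription factors Atf5, at 22.6 and 22.9 FPKM in WT and 37.1 and 37.9 FPKM in KO (limma adjusted p = 0.0918), and Atf3, at 6.16 and 5.27 against 8.18 and 10.9 FPKM (adjusted p = 0.196). Of the 8 regulators of the 9 genes, Nfe2l2 alone was called. Bach1, a repressor at antioxidant response elements, stood at 36.5 and 34.1 FPKM in WT and at 30.4 and 29.9 FPKM in KO (limma adjusted p = 0.378).

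**Figure D4:**
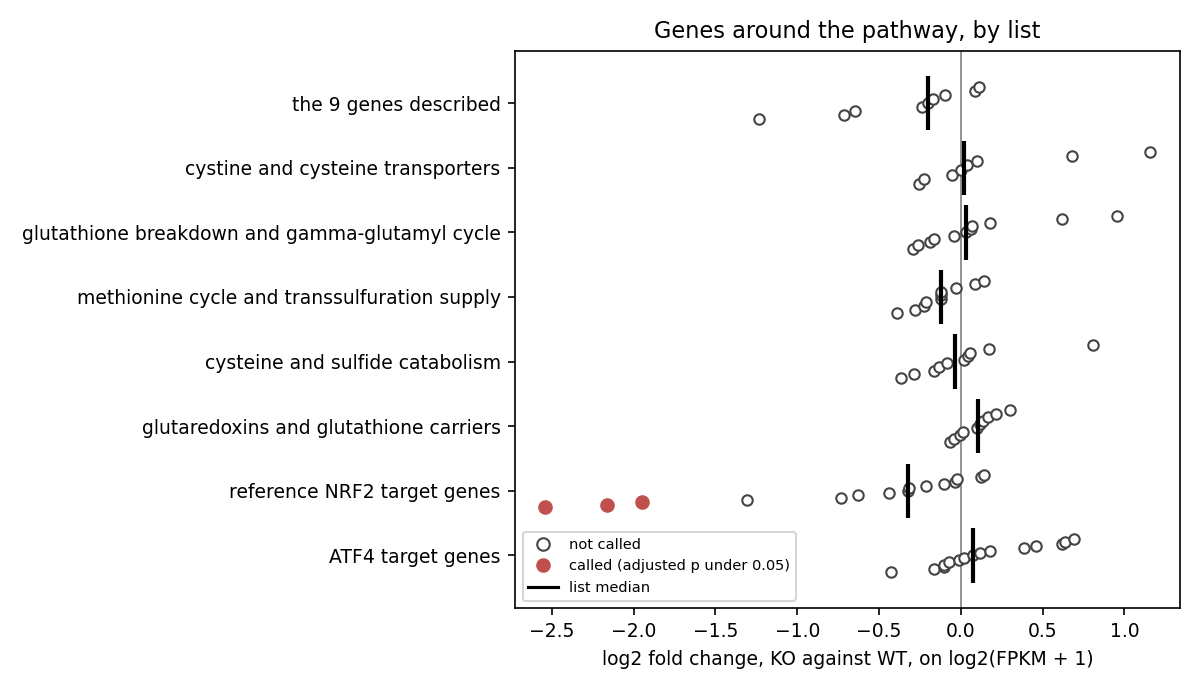
Each point is 1 tested gene, placed by its log2 fold change of KO against WT on log2(FPKM + 1) and by its list, and black bars mark list medians. The filled points, which are the called genes, are Gsta3, Gpx2 and Gstm1 among the reference NRF2 target genes, and no point in the other lists shown is filled.

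The genes nearest to Slc7a11 by their profile were Mitf, Pprc1 and Zfp704, at Euclidean distances of 0.05, 0.06 and 0.08 on centred log2(FPKM + 1) over the 4 libraries. With 4 libraries in 2 genotypes many genes have such a profile, and the likeness is a description. Mitf, for instance, stood at 36.2 and 33.4 FPKM in WT and at 22.0 and 21.0 FPKM in KO.

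Markers of other cell types were also compared between WT and KO, and the sums of some lists overlapped between the groups. Of all tested genes, 0.0380% were called as lower and 0.0761% as higher. At a limma unadjusted p under 0.05, 7.01% of all tested genes were lower and 8.36% higher. Neutrophil markers summed to 355 and 347 FPKM in WT and 440 and 452 FPKM in KO, with 3 of 10 called as higher and 8 of 10 higher at a limma unadjusted p under 0.05. Their median log2 fold change was 1.30, and most of the sum came from Hdc (323 and 313 FPKM in WT, 331 and 323 in KO), which overlapped. T cell markers summed to 22.8 and 21.1 against 44.9 and 55.7 FPKM, with 9 of 9 tested higher at a limma unadjusted p under 0.05 and 0 called. Erythroid markers summed to 247 and 490 against 1194 and 1094 FPKM, with 5 of 5 tested higher by the same rule and 0 called. Club cell markers summed to 2085 and 1014 against 2485 and 3608 FPKM, with 4 of 8 higher and 0 lower by that rule. Most of that sum came from Scgb1a1 (1709 and 723 FPKM in WT, 1996 and 3099 in KO). Alveolar macrophage markers summed to 838 and 740 against 899 and 1465 FPKM, with 3 of 10 lower and 2 higher at a limma unadjusted p under 0.05. Most of that sum came from Chil3 (526 and 436 FPKM in WT, 487 and 1029 in KO), which overlapped. Krt79, counted among the 3 lower, passed the filter through WT alone. Endothelial markers summed to 154 and 80.8 against 128 and 206 FPKM, and fibroblast markers to 350 and 237 against 348 and 565 FPKM. Their median log2 fold changes were 0.46 and 0.59. At a limma unadjusted p under 0.05, 2 of 8 endothelial and 2 of 7 tested fibroblast markers were higher. In both lists 0 were lower by that rule and 0 were called. B cell markers summed to 19.6 and 23.1 against 34.2 and 26.7 FPKM, with 4 of 5 tested higher at a limma unadjusted p under 0.05, 0 called and a median log2 fold change of 0.90. Ciliated cell markers summed to 33.7 and 19.5 against 42.5 and 47.7 FPKM, and pan-macrophage markers to 417 and 386 against 413 and 496 FPKM. Their median log2 fold changes were 0.52 and 0.05. At a limma unadjusted p under 0.05, 2 of 5 tested ciliated and 1 of 10 pan-macrophage markers were higher. In both lists 0 were lower by that rule and 0 were called. No marker in these lists was at 0 in all libraries, and the part of cell composition in the values of the 9 genes was not tested.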

How the data were processed

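RNA sequencing of 4 lung tumour samples (2 WT, 2 KO) was read from 1 deposited table of FPKM. The authors made these values in steps for which TopHat2, DESeq2 and mm10 are named, per the submitters' processing notes, with neither role nor version. Counter, annotation and strand setting were not given in the sources used here. Groups came from the sample titles. Symbols and coordinates are from GENCODE M21 (GRCm38, the assembly of mm10), and 34490 of 35275 identifiers matched.

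The comparison of WT and KO used limma (version 3.58.1, R 4.3.3) with log2(FPKM + 1) as the value and a trended variance prior. Genes needed an FPKM of 1 or more in at least 2 libraries. Benjamini-Hochberg adjustment ran over all 13147 genes, and the threshold for a call was an adjusted p of 0.05. Fold changes on this scale understate changes of low genes. Nothing in the labels says that samples came from separate cages or days, so p-values measure the spread between these 4 samples. Whole reads, within 0.0005 reads plus 5e-08 per read and rounding, were recovered by finding a gene length at which all values became whole; for 16103 of 21601 genes above 0 this was the smallest such length, so their reads are minima and counting intervals may be too wide. Limma-voom on these reads used TMM factors. Scripts were tested on simulated data. The named genes are the 9 genes, Nfe2l2, called genes and the 2 largest differences at an unadjusted p under 0.05 of each list, and the 3 genes nearest to Slc7a11; Slc7a9, Slc3a1, Ggt5, Nqo1, Atf4, Bach1 and Hdc were added after their values were seen. The 9 genes and all lists were chosen with earlier results of these data known.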

Additional observations from a re-analysis of the deposited data

How the results depend on the processing

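The number of genes called was 15 and depended on the setting. It was 1 with no filter on low values, 6 with limma-voom on reads, 65 at an adjusted p under 0.1, and between 10 (without WT 1) and 221 (without KO 1) with 1 library left out; without KO 2 it was 49. Of the 9 genes, 0 were called with quantile normalization, without the trend, with no filter, with a filter of FPKM 5, with pseudocounts of 0.1 and 10, at an adjusted p under 0.1 and with limma-voom; with 1 library left out the count was 0 to 1, the 1 being Ggt1 without KO 1; where 1 library of a genotype is left, it is assumed to vary like the other genotype. The log2 fold change of Ggt1 ranged from -1.54 to -0.93 with 1 library left out. Slc7a11 ranged from -0.78 to -0.64 and Cbs from -0.76 to -0.54 in the same way, and the filter of FPKM 5 removed both. Their sign could not turn with 1 library left out, because both KO libraries lay below both WT libraries. Both genes passed the main filter through WT alone. With a pseudocount of 10, Slc7a11, Cbs and Ggt1 were at -0.14, -0.13 and -0.42. The sign of 3 genes near 0 turned with 1 library left out, with ranges of -0.00072 to 0.22 for Cth (turned without WT 1), -0.27 to 0.077 for Gclm and -0.027 to 0.20 for Slc3a2. The log2 ratio of Gclm to Gclc (KO minus WT) ranged from -0.040 to 0.18 and that of Gclc to Gss from -0.035 to 0.12. The other ratios did not overlap between the groups, so leaving out 1 library could not turn their sign. The cause was not tested. With the replicate number as a block, 69 genes and 0 of the 9 were called; the labels do not say what a number shares, and the deviations of WT 1 and KO 1 from their group means correlated at -0.31 over the tested genes. With the crossed pairing (WT 1 with KO 2, chosen after seeing the data), 848 genes were called, and 1 of the 9 (Ggt1, -1.23). Read counts limit Cbs, Ggt1 and Slc7a11 most.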
